A study of Arabidopsis thaliana with 2 samples.

Results

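The genes described here carry out fatty acid synthesis in the plastid and the steps that turn its products into seed oil in Arabidopsis thaliana. They are 49 loci chosen by identifier and role: the regulator WRI1, plastid pyruvate kinase and pyruvate dehydrogenase, acetyl-CoA carboxylase, fatty acid synthase, acyl carrier proteins, acyl-ACP desaturases and thioesterases, and the desaturases, elongase and acyltransferases outside the plastid. A total of 20029 genes were listed in at least 1 of the 2 libraries, and 47 of the 49 loci were listed in both. Transcripts came from the suspensor, the stalk that joins the young embryo to maternal tissue, and from the embryo proper, the sphere of cells above it that forms the seedling. Both came from untreated plants of the accession Ws-0, 38 to 46 days old, at the globular stage, with no transgene or mutation named in the labels. Each region was chosen by its form on paraffin sections, captured by laser and sequenced as 1 library, and the labels do not say how many seeds or plants each library pools. With 1 library per tissue there was no replicate check, so the values describe these libraries and no test was run.

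In developing seeds, plastids import carbon from glycolysis, convert pyruvate to acetyl-CoA and then to malonyl-CoA, and build fatty acids on acyl carrier proteins (ACPs), small proteins that hold the growing chain on a phosphopantetheine arm. A soluble desaturase makes oleoyl-ACP, thioesterases release the free acid, and it leaves the plastid to be desaturated or elongated and joined to glycerol at the endoplasmic reticulum (ER). WRI1 is an AP2-type transcription factor known for switching on the plastid part of the route in oil-storing seeds.

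The suspensor library held higher levels of most transcripts for enzymes outside the plastid. Among the plastid steps, acyl carrier proteins and acyl-ACP desaturases had near-equal sums and differed in which paralogue supplied the transcript. Acetyl-CoA carboxylase transcripts summed to a level 2.20-fold higher in the suspensor library. Levels are given in RPKM, the reads of a gene divided by its length in kilobases and by the library total, per 1000000, a scale on which genes of different length can be compared. A gene is called higher or lower when it passes 2-fold on the scale of log2(RPKM + 1) and has at least 1 RPKM in at least 1 library. Of the 46 loci that had this level, 17 (37.0%) were higher in the suspensor library and 1 (2.17%) was lower. Over all 16975 genes with this level, 29.3% were higher and 23.1% were lower. The share of loci called higher was thus not far from that of all genes, and the share called lower was below it. The lower calls depended on the scaling: 5 loci were lower and 15 higher when the libraries were scaled to a median log2 ratio of 0, and 4 were lower and 17 higher when they were scaled by the upper quartile. The median log2 difference was 0.65 over the loci and 0.13 over all genes.

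The loci fell into a plastid group and a group beyond it. Of 35 plastid loci that passed the level, 9 (25.7%) were higher in the suspensor library and 1 was lower, against 8 (80%) and 0 of the 10 that act after export. Summed over its 37 loci, the plastid part of the route stood at 4226 RPKM in the suspensor and 3724 RPKM in the embryo proper, a ratio of 1.13 (1.11 to 1.16). The 11 loci after export summed to 2296 RPKM in the suspensor and 836 RPKM in the embryo proper, a ratio of 2.75 (2.68 to 2.81). The ER desaturase FAD2 alone gave 1966 RPKM of this in the suspensor and 730 RPKM in the embryo proper, so the ratio is mostly its own. The oil assembly loci, which leave out FAD2, had a ratio of 2.63 (2.47 to 2.80). Of the plastid sum, acyl carrier proteins gave 1893 RPKM in the suspensor and 1872 RPKM in the embryo proper. Ranges in brackets are 95% intervals from reads recovered from the deposited values. They are exact binomial intervals for single genes and shares, and a normal approximation on the log scale for ratios of summed levels. They cover counting error of reads only. Copies made by PCR were not marked with molecular identifiers and were counted as separate reads. The intervals can therefore be narrower than the counting error of the RNA molecules. Fewer cells of a type and less RNA per cell cannot be told apart in such libraries.

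**Figure D1:**
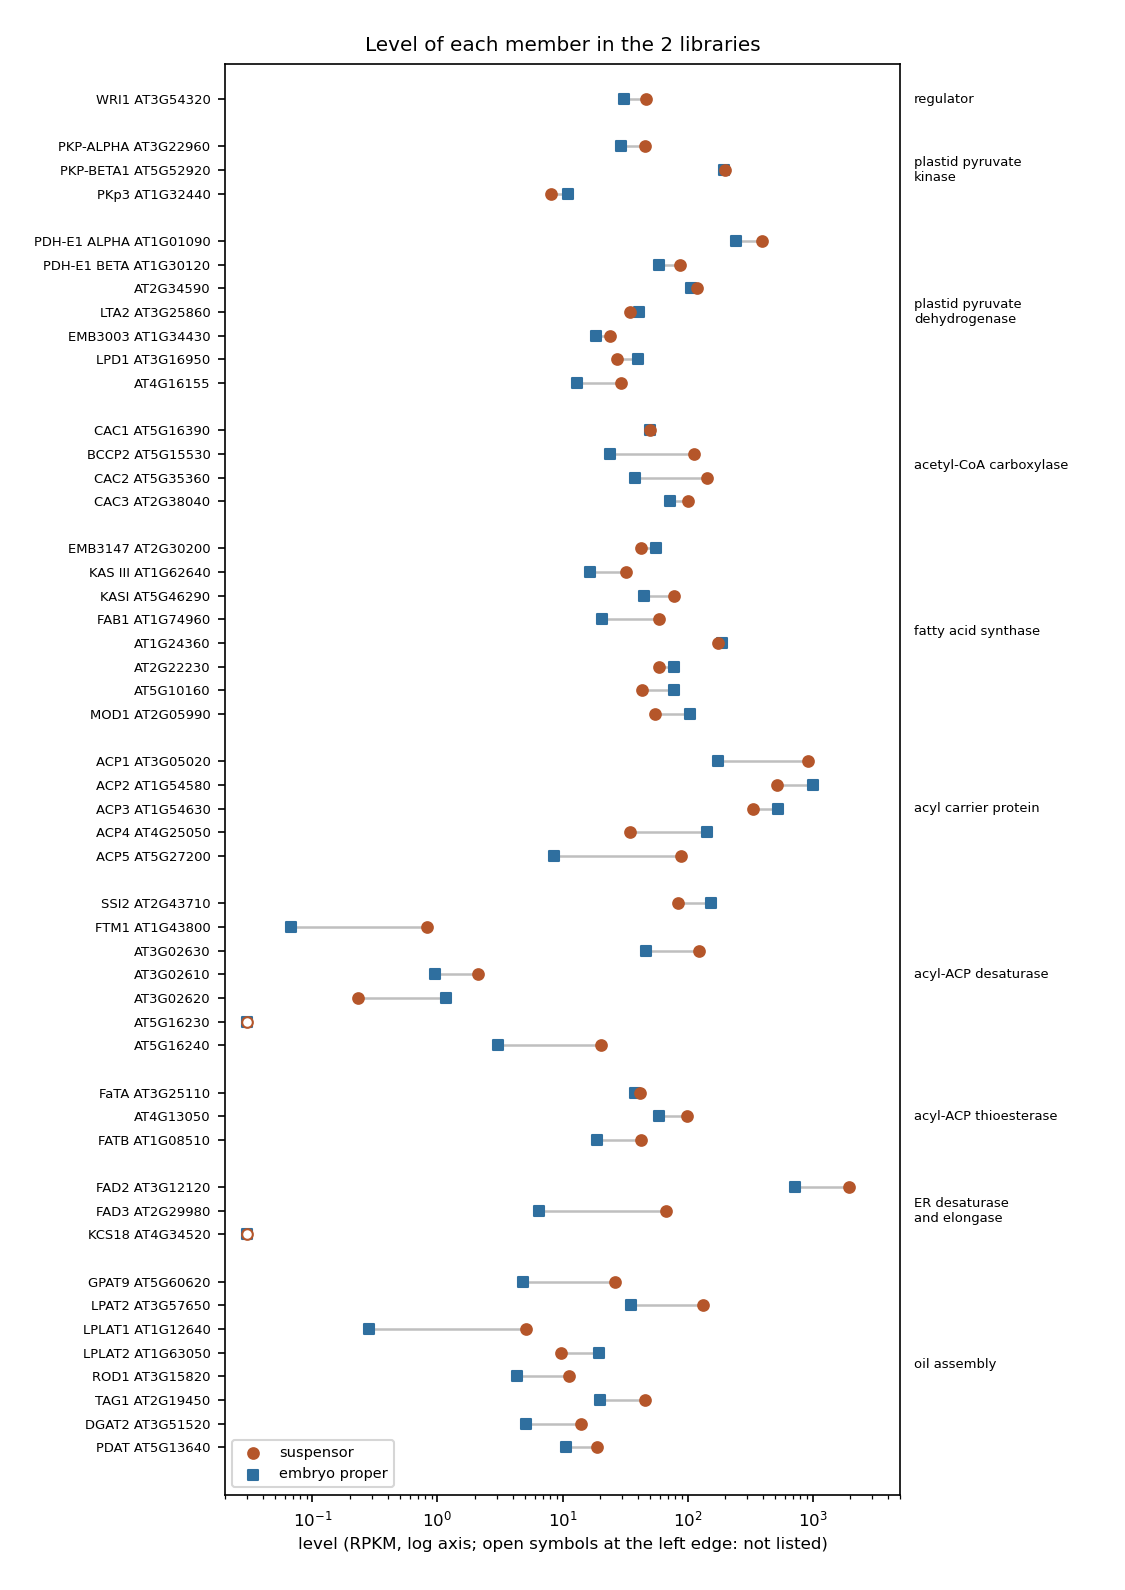
Level of each of the 49 loci in RPKM on a log axis, grouped by step, with circles for the suspensor library and squares for the embryo proper library; open symbols at the left edge mark loci listed in neither. In the desaturase, elongase and oil assembly groups at the bottom most circles lie right of their squares, while among the acyl carrier proteins ACP1 and ACP5 lie right and ACP2, ACP3 and ACP4 left.

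Depth and markers of each region were read first. The suspensor library held 7189131 recovered reads and listed 18672 genes, and the embryo proper library held 12715871 reads and listed 18071. All 5 suspensor genes checked were higher in the suspensor library, with a sum of 391 RPKM there and 27.2 RPKM in the embryo proper. Of 5 embryo proper genes 4 were lower in the suspensor library, with a sum of 48.1 RPKM there against 366 RPKM, and DRNL was not listed in the suspensor. Markers of neighbouring seed tissue were also present: 7 of 7 endosperm genes that passed the level were higher in the suspensor library, with a sum of 174 RPKM against 18.3 RPKM in the embryo proper, and 6 of 7 seed coat genes were higher, with 79.4 RPKM against 3.37 RPKM. Over all genes 29.3% were higher. PHE1, a further endosperm gene, stayed under 1 RPKM, at 0.828 RPKM in the suspensor and 0.936 RPKM in the embryo proper. TT16 was listed in neither library, and BAN, TT10 and TT8 were not listed in the embryo proper. The part of these tissues in the differences below was not tested.

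WRI1 (AT3G54320) stood at 46.2 RPKM in the suspensor and 30.8 RPKM in the embryo proper, 1.50-fold (1.32 to 1.71) and under the 2-fold call. Other regulators of seed maturation differed more, apart from LEC2. NF-YB6 (AT5G47670), a relative of LEC1, was at 135 RPKM in the suspensor and 8.59 RPKM in the embryo proper, FUS3 (AT3G26790), a B3-type regulator, at 131 RPKM against 25.6 RPKM, and LEC1 (AT1G21970) itself at 69.3 RPKM against 24.3 RPKM. ABI3 (AT3G24650), another B3-type regulator, was lower in the suspensor library, at 7.97 RPKM against 72.1 RPKM in the embryo proper. LEC2 (AT1G28300), also B3-type, was at 7.77 RPKM in the suspensor and 11.9 RPKM in the embryo proper, 1.53-fold lower (1.13 to 2.09) and under the call. Among the 5 of these regulators that passed the level, 3 (60%) were higher in the suspensor library and 1 (20%) was lower. The shares over all genes were 29.3% and 23.1%.

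The binding motif known for WRI1, the AW-box, was searched in the 250 bases before and 50 bases after the start of each gene, on both strands, as C, any base, T, any base, G, then 7 bases of any kind and CG, in the RefSeq assembly TAIR10.1 of the accession Col-0. It was found in 3261 of 27443 protein-coding nuclear genes (11.9%) and in 8 of the 49 loci (16.3%). The loci with it were PDH-E1 ALPHA, PDH-E1 BETA, AT4G16155, CAC3, AT2G22230, ACP1, ACP5 and LPLAT2. Of these 3 were among the 17 loci higher in the suspensor library, and the other 5 were within 2-fold. The share with the motif was thus 17.6% of the higher loci, near the 16.3% of all 49 loci. The pieces below show the motif in capitals on the strand of the gene for the 3 higher loci and, for comparison, for AT2G22230, whose transcript was not higher. A match of letters is a description of the sequence and not evidence of binding.
ACP1, chr3:1392928-1392957, minus strand: ttcacgctCTTTGTACACTCCGccctctct
ACP5, chr5:9571139-9571168, plus strand: ttcacgctCCTTGAACAATCCGccatctct
AT4G16155, chr4:9157219-9157248, minus strand: catctccgCTTTGATATCTCCGcctccgct
AT2G22230, chr2:9449950-9449979, plus strand: aactaacacaaacCTTTGTACTCTCCGctc
The same 8 bases precede the motif in ACP1 and ACP5, where the motif begins at position 6 after the gene start and 38 bases before it.

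The steps that lead to acetyl-CoA had close to equal or moderately different levels. Plastid pyruvate kinase makes pyruvate, and its 3 genes summed to 255 RPKM in the suspensor and 237 RPKM in the embryo proper, a ratio of 1.07 that ran from 0.968 to 1.32 over the scalings. PKP-BETA1 (AT5G52920), the most abundant, was at 201 RPKM in the suspensor and 197 RPKM in the embryo proper. PKP-ALPHA (AT3G22960), its alpha partner subunit, was at 45.7 RPKM against 29.6 RPKM. PKp3 (AT1G32440), a further plastidial isoform, was at 8.11 RPKM in the suspensor and 11.1 RPKM in the embryo proper, the reverse order. None of the 3 reached 2-fold.

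Plastid pyruvate dehydrogenase turns pyruvate into acetyl-CoA in a complex of 3 enzymes. Its 7 genes summed to 714 RPKM in the suspensor and 520 RPKM in the embryo proper, a ratio of 1.37 (1.33 to 1.42). The decarboxylating component was led by PDH-E1 ALPHA (AT1G01090), at 393 RPKM in the suspensor and 242 RPKM in the embryo proper, 1.62-fold (1.55 to 1.70). Its beta partners were PDH-E1 BETA (AT1G30120), at 86.9 RPKM against 58.6 RPKM, and AT2G34590, which RefSeq annotates as a transketolase family protein, at 119 RPKM against 107 RPKM. The acyltransferase component differed little: LTA2 (AT3G25860) was at 34.4 RPKM in the suspensor and 40.5 RPKM in the embryo proper, and EMB3003 (AT1G34430) at 24.2 RPKM against 18.6 RPKM. The dihydrolipoamide dehydrogenases, which reoxidise the lipoyl arm, had opposite orders. AT4G16155 was higher in the suspensor library, at 29.5 RPKM against 13.0 RPKM, 2.27-fold (1.94 to 2.66), while LPD1 (AT3G16950) was at 27.2 RPKM in the suspensor and 40.3 RPKM in the embryo proper. AT4G16155 thus made up 52.1% of this pair in the suspensor (48.4 to 55.7), against 24.4% in the embryo proper (22.0 to 26.9). With the libraries scaled to a median log2 ratio of 0, AT4G16155 lost its call on the scale of log2(RPKM + 1), although its fold without a pseudocount was 2.05.

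Acetyl-CoA carboxylase, which makes malonyl-CoA and is known as a control point of the route, was the plastid enzyme with the largest ratio of summed levels among the steps. Its 4 nuclear genes stood at 406 RPKM in the suspensor and 184 RPKM in the embryo proper, 2.20-fold (2.10 to 2.31). CAC2 (AT5G35360), the biotin carboxylase, was at 142 RPKM in the suspensor and 37.8 RPKM in the embryo proper, 3.76-fold (3.46 to 4.10). BCCP2 (AT5G15530), the carrier protein isoform that holds the biotin, was at 112 RPKM against 24.2 RPKM, 4.65-fold. Its paralogue CAC1 (AT5G16390) was almost level, at 50.3 RPKM in the suspensor and 49.8 RPKM in the embryo proper. BCCP2 therefore gave 69.1% of the biotin carrier transcript in the suspensor (66.0 to 72.1), against 32.7% in the embryo proper (29.4 to 36.2). The alpha carboxyltransferase CAC3 (AT2G38040) was at 101 RPKM against 72.4 RPKM, under the 2-fold call. The plastid-encoded carboxyltransferase subunit was not analysed here. Exons of BCCP2 and CAC2 overlap genes on the opposite strand, as do those of 16 of the 49 loci, and without a stated strand setting reads of such pairs cannot be told apart.

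**Figure D2:**
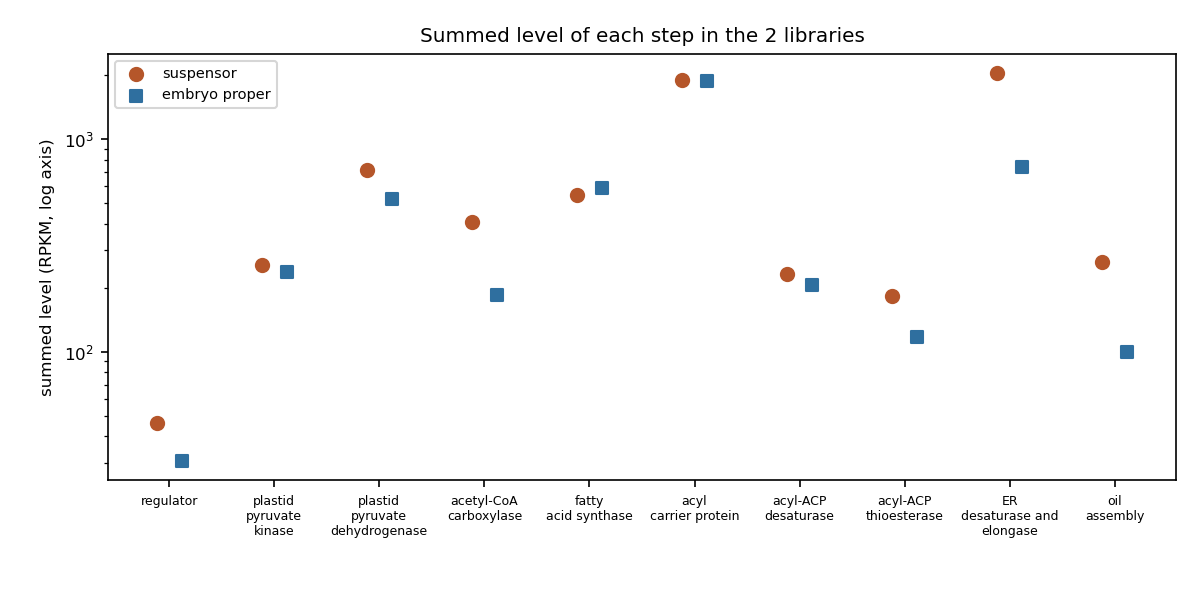
Summed level of each step in RPKM on a log axis, with circles for the suspensor library and squares for the embryo proper library. The symbols of acyl carrier proteins, pyruvate kinase, fatty acid synthase and acyl-ACP desaturases lie close together, and those of acetyl-CoA carboxylase and of the steps outside the plastid are set apart, at 406 and 184 RPKM for the carboxylase.

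Of the 8 genes of fatty acid synthase, 1 (12.5%) was higher in the suspensor library, 0 were lower and 7 were within 2-fold. The shares over all genes were 29.3% higher and 23.1% lower. They summed to 544 RPKM in the suspensor and 587 RPKM in the embryo proper, a ratio of 0.926 that ran from 0.835 to 1.14 over the scalings. FAB1 (AT1G74960), the condensing enzyme for the last elongation to stearate, was higher in the suspensor library, at 58.8 RPKM against 20.8 RPKM, 2.83-fold (2.50 to 3.20). KAS III (AT1G62640), which starts the chain, was at 32.1 RPKM in the suspensor and 16.5 RPKM in the embryo proper, 1.94-fold (1.63 to 2.31). KASI (AT5G46290), which extends it to palmitate, was at 77.3 RPKM against 45.1 RPKM, 1.71-fold (1.56 to 1.89). Of these 3 condensing enzymes FAB1 alone passed 2-fold. The 5 other genes of the synthase had the larger value in the embryo proper. MOD1 (AT2G05990), the enoyl-ACP reductase that ends each cycle, was at 54.4 RPKM in the suspensor and 105 RPKM in the embryo proper, 1.94-fold lower (1.75 to 2.15). The dehydratases, annotated in RefSeq as thioesterase superfamily proteins, were at 59.2 RPKM against 78.4 RPKM for AT2G22230 and at 43.6 RPKM against 77.2 RPKM for AT5G10160. EMB3147 (AT2G30200), which loads malonyl groups onto the carrier, was at 42.7 RPKM in the suspensor and 55.8 RPKM in the embryo proper. AT1G24360, the ketoacyl-ACP reductase locus of the list, was at 176 RPKM against 188 RPKM, an order that turned round under 1 scaling, without the 10 most abundant genes of either library. None of these 5 reached 2-fold with the deposited values, but MOD1 was called lower when the libraries were scaled to a median log2 ratio of 0, by the upper quartile or to equal sums.

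The acyl carrier proteins had a near-equal summed level in both libraries and a different make-up. The 5 genes summed to 1893 RPKM in the suspensor and 1872 RPKM in the embryo proper, a ratio of 1.01 (0.979 to 1.04) that ran from 0.912 to 1.25 over the scalings. ACP1 (AT3G05020) was at 917 RPKM in the suspensor and 176 RPKM in the embryo proper, 5.21-fold higher (4.83 to 5.61). ACP5 (AT5G27200) was at 88.4 RPKM against 8.61 RPKM, 10.3-fold higher (7.49 to 14.4), with 46 reads in the embryo proper. ACP4 (AT4G25050), known as the main isoform of leaf chloroplasts, was the 1 locus of the 49 called lower with the deposited values, at 34.9 RPKM in the suspensor and 144 RPKM in the embryo proper, 4.11-fold lower (3.37 to 5.05). ACP2 (AT1G54580) was at 518 RPKM in the suspensor and 1010 RPKM in the embryo proper, 1.95-fold lower (1.84 to 2.07). ACP3 (AT1G54630) was at 335 RPKM in the suspensor and 533 RPKM in the embryo proper, 1.59-fold lower (1.48 to 1.71). ACP1 and ACP5 together gave 53.1% of the acyl carrier protein transcript in the suspensor (51.8 to 54.4), against 9.87% in the embryo proper (9.28 to 10.5). These shares do not depend on how a library is scaled, and over reads in place of RPKM they were 53.2% in the suspensor, against 9.87% in the embryo proper.

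The 5 proteins carry their acyl chain on a serine that is followed by leucine, and the coding stretch around it shows how the paralogues group. Each stretch of 48 coding bases below is read from the RefSeq assembly TAIR10.1 on the coding strand, with the codon of that serine in capitals.
ACP1, chr3:1392066-1392113, minus strand: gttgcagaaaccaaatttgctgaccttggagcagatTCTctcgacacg
ACP5, chr5:9571736-9571783, plus strand: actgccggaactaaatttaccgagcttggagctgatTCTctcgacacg
ACP2, chr1:20390274-20390321, plus strand: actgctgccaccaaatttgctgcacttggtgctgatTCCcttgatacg
ACP3, chr1:20402035-20402082, minus strand: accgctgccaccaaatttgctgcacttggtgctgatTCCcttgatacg
ACP4, chr4:12870642-12870689, plus strand: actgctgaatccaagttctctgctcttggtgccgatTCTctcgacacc
ACP2 and ACP3 differ at 1 base of this stretch and ACP1 and ACP5 at 9, whereas the other pairs differ at 12 or 13. Over the aligned coding sequence, ACP2 and ACP3 are identical at 94.2% of bases and ACP1 and ACP5 at 77.1%, the highest value of ACP1 and of ACP5 with any of the others. ACP1 and ACP2, whose levels had opposite orders, are identical at 73.8%. ACP2 and ACP3 lie 10209 bases apart on chromosome 1 with 3 coding genes between them and share 18 runs of 50 coding bases, so the authors' counting could have moved reads between them. ACP1, ACP4 and ACP5 share no such run with another gene. Exons of ACP1 and ACP5 overlap genes on the opposite strand, however, and without a stated strand setting reads of such pairs cannot be told apart. ACP2 and ACP3, the pair nearest in sequence, thus both had their higher level in the embryo proper, and ACP1 and ACP5 both had theirs in the suspensor.

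**Figure D3:**
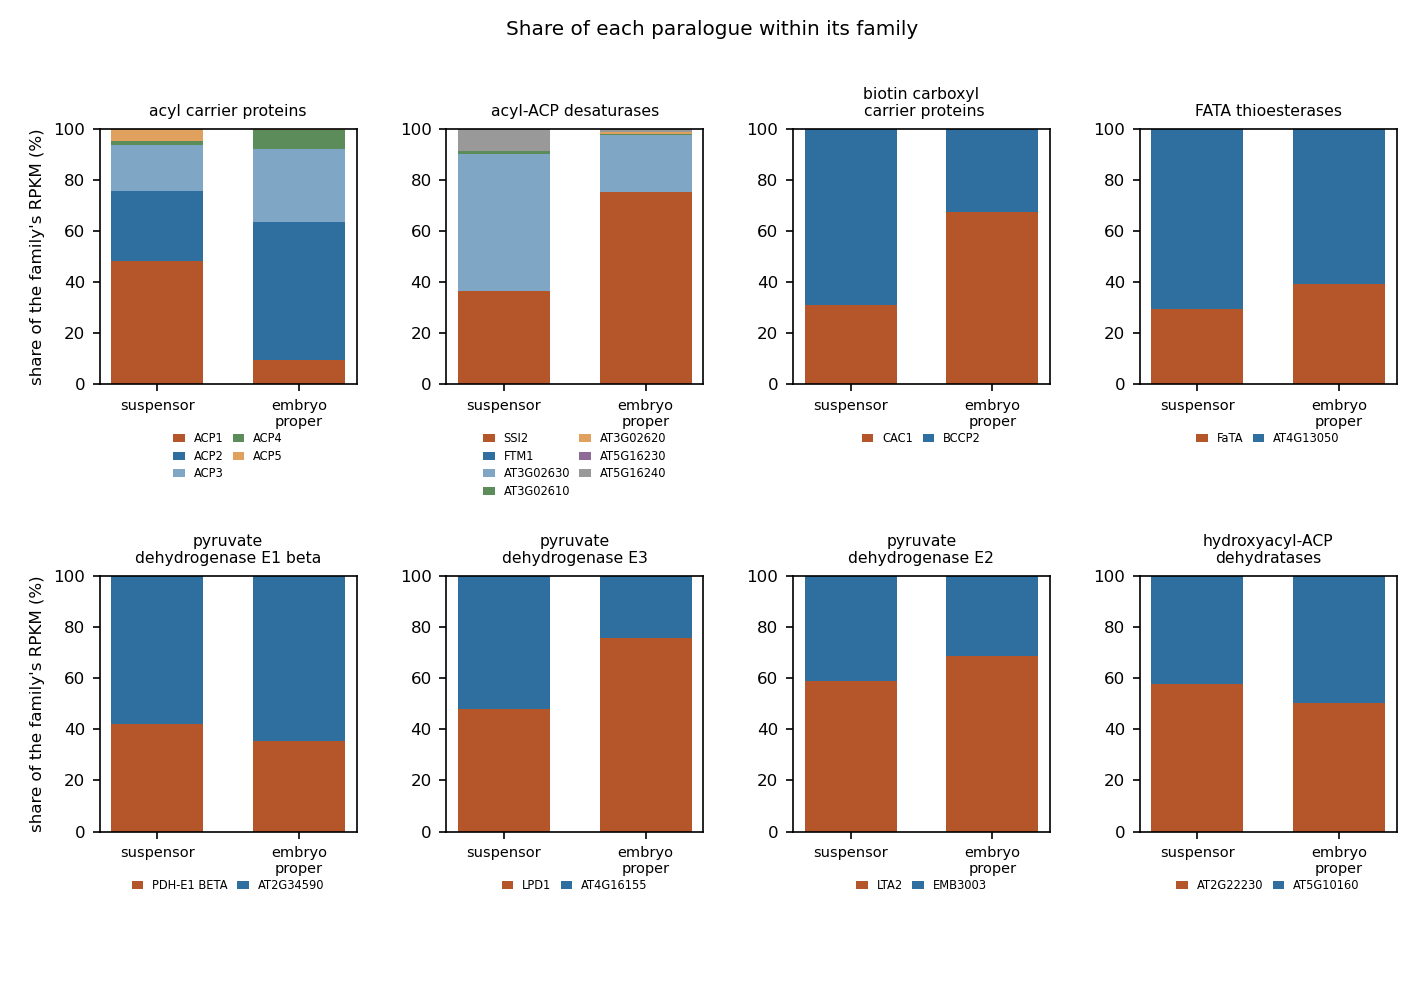
Share of each paralogue in the summed RPKM of its family, in percent, for 8 families, with the suspensor bar left of the embryo proper bar in each panel. The make-up differs most for acyl carrier proteins, where ACP1 and ACP5 give 53.1% in the suspensor against 9.87% in the embryo proper, and for acyl-ACP desaturases and biotin carboxyl carrier proteins.

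The soluble acyl-ACP desaturases, which introduce the double bond of oleate, repeated this pattern of near-equal sums with different paralogues. The 7 genes summed to 231 RPKM in the suspensor and 207 RPKM in the embryo proper, a ratio of 1.12 (1.06 to 1.19). SSI2 (AT2G43710), known as the main stearoyl-ACP desaturase of the plant, was at 84.1 RPKM in the suspensor and 155 RPKM in the embryo proper, 1.84-fold lower (1.70 to 2.01). AT3G02630 was higher in the suspensor library, at 124 RPKM against 46.3 RPKM, 2.68-fold (2.43 to 2.95). AT5G16240 was also higher, at 20.2 RPKM against 3.05 RPKM, 6.61-fold (4.75 to 9.37). SSI2 gave 36.3% of the family's transcript in the suspensor (34.2 to 38.5), against 75.1% in the embryo proper (73.5 to 76.6), and AT3G02630 gave 53.6% in the suspensor (51.4 to 55.8), against 22.4% in the embryo proper (21.0 to 23.9). The most abundant desaturase transcript therefore differed between the libraries.

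The desaturase paralogues called higher in the suspensor library were also near relatives. Not all close paralogues shared a direction: LPD1 and AT4G16155, identical at 86.0% of aligned coding bases, had opposite orders. So did AT3G02610 and AT3G02620, at 94.3%, on few reads. AT3G02630 and AT5G16240 are identical at 85.4% of aligned coding bases although they lie on chromosomes 3 and 5, and neither exceeds 72.8% with SSI2. Their direct neighbours had few reads. AT3G02620 ends 50 bases before AT3G02630 and was at 0.230 RPKM in the suspensor and 1.17 RPKM in the embryo proper, from 2 and 18 reads, a ratio of 0.197 (0.0221 to 0.821). AT3G02610, 2458 bases further upstream, was at 2.13 RPKM in the suspensor and 0.950 RPKM in the embryo proper, and it shares 142 runs of 50 bases with AT3G02620. AT5G16230 lies 651 bases from AT5G16240 and was listed in neither library. FTM1 (AT1G43800), the remaining relative, stayed under 1 RPKM, with 7 reads in the suspensor library against 1 for the embryo proper.

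Acyl-ACP thioesterases end synthesis by releasing the free fatty acid. The 3 genes summed to 183 RPKM in the suspensor and 117 RPKM in the embryo proper, a ratio of 1.57 (1.47 to 1.69). FATB (AT1G08510), which favours saturated chains such as palmitate, was higher in the suspensor library, at 42.1 RPKM against 18.9 RPKM, 2.23-fold (1.91 to 2.60). With the libraries scaled to a median log2 ratio of 0, its fold without a pseudocount was 2.01 and its call on the scale of log2(RPKM + 1) was lost. The FATA enzymes, which favour oleate, did not reach 2-fold: AT4G13050 was at 99.8 RPKM in the suspensor and 59.3 RPKM in the embryo proper, and FaTA (AT3G25110) at 41.4 RPKM against 38.3 RPKM. AT4G13050 was the more abundant of the FATA pair in both libraries, with 70.7% in the suspensor against 60.7% in the embryo proper.

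Outside the plastid the differences were larger and mostly ran one way. FAD2 (AT3G12120), the ER desaturase that turns oleate into linoleate, was the most abundant transcript of the 49 in the suspensor, at 1966 RPKM there and 730 RPKM in the embryo proper, 2.69-fold higher (2.63 to 2.76). Its rank among all genes was 61 in the suspensor library, against 283 for the embryo proper. FAD3 (AT2G29980), which makes linolenate in the next step, was at 66.9 RPKM in the suspensor and 6.50 RPKM in the embryo proper, 10.3-fold higher (8.27 to 12.9). KCS18 (AT4G34520), the condensing enzyme known as FAE1 that makes the very-long-chain acids of seed oil, was listed in neither library. The core enzymes of ER elongation had the opposite direction: KCR1 (AT1G67730), the ketoacyl-CoA reductase, was lower in the suspensor library, at 29.5 RPKM against 91.5 RPKM, and the other 2 of that list did not reach 2-fold.

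The enzymes that join fatty acids to glycerol summed to 263 RPKM in the suspensor and 100 RPKM in the embryo proper, a ratio of 2.63 (2.47 to 2.80). In the suspensor library 6 of the 8 genes were higher (75%, against 29.3% of all genes). GPAT9 (AT5G60620), which adds the first acyl chain, was at 26.1 RPKM in the suspensor and 4.87 RPKM in the embryo proper, 5.36-fold (4.07 to 7.12). LPAT2 (AT3G57650), which adds the next, was at 132 RPKM against 35.4 RPKM, 3.72-fold (3.35 to 4.14). Both steps that build phosphatidic acid were thus higher. The last acyl chain can come from acyl-CoA or from a phospholipid. TAG1 (AT2G19450), the diacylglycerol acyltransferase known as DGAT1, was at 46.0 RPKM in the suspensor and 19.8 RPKM in the embryo proper, 2.33-fold (2.04 to 2.66). DGAT2 (AT3G51520), an unrelated enzyme of the same reaction, was at 14.1 RPKM against 5.08 RPKM, 2.78-fold (2.00 to 3.90). PDAT (AT5G13640), which takes the chain from phospholipid, was at 18.8 RPKM in the suspensor and 10.7 RPKM in the embryo proper, 1.76-fold (1.48 to 2.08), under the call.

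Enzymes that pass chains through phosphatidylcholine, where FAD2 and FAD3 act, were divided. ROD1 (AT3G15820), which exchanges headgroups between phosphatidylcholine and diacylglycerol, was higher in the suspensor library, at 11.4 RPKM against 4.34 RPKM, 2.62-fold (1.80 to 3.83). The acyl-editing pair again differed by paralogue. LPLAT1 (AT1G12640) was at 5.11 RPKM in the suspensor and 0.283 RPKM in the embryo proper, 18.0-fold higher (7.25 to 57.9) on 51 and 5 reads, and 4.76-fold once 1 RPKM was added to both values. LPLAT2 (AT1G63050) was at 9.65 RPKM in the suspensor and 19.6 RPKM in the embryo proper, 2.03-fold lower (1.62 to 2.57) without a pseudocount and within 2-fold with it. Exons of LPLAT1, GPAT9 and DGAT2 overlap genes on the opposite strand, as do those of ACP1 and ACP5. Beside these genes, the markers of endosperm and seed coat had median log2 differences of 2.59 and 2.22, and their part in the result was not tested.

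**Figure D4:**
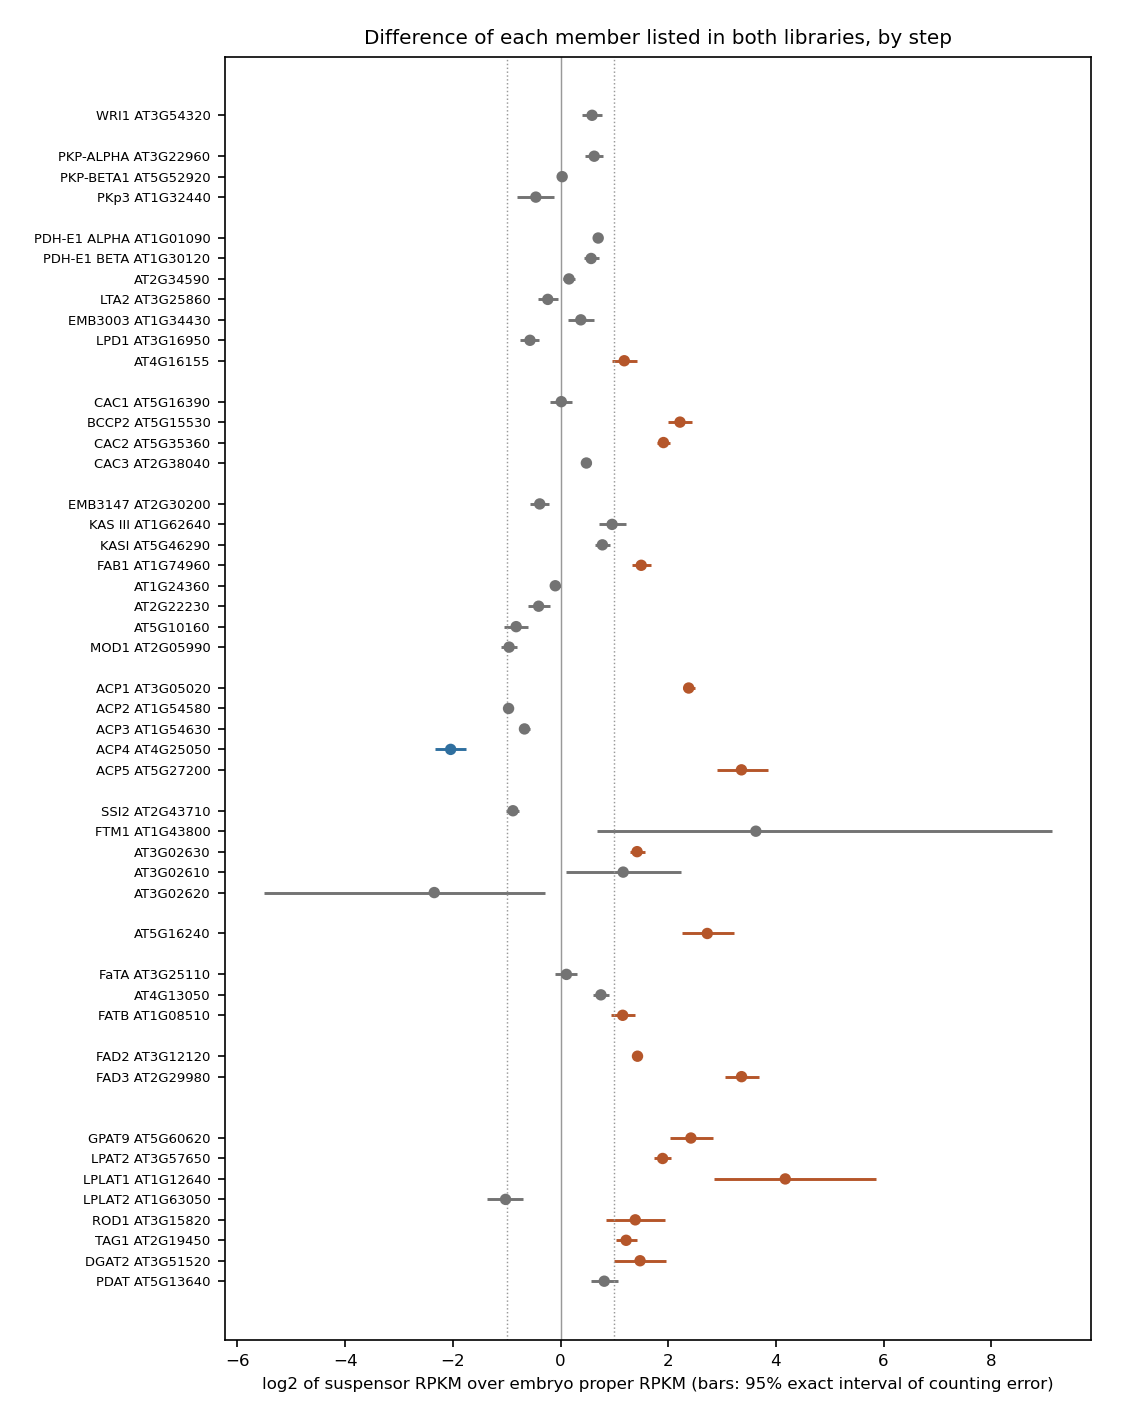
Log2 of the suspensor over embryo proper level for the 47 loci listed in both libraries, without a pseudocount, by step; bars are 95% exact intervals of counting error and dotted lines mark 2-fold. Orange points are loci called higher in the suspensor library, the blue point is ACP4, called lower, and grey points were not called; the widest bars belong to FTM1 and AT3G02620, which rest on few reads.

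Counting error of reads, with PCR copies counted as separate reads, was small beside most of these differences. For 43 of the loci the 95% interval of the fold left out 1. The direction of 5 loci turned round under at least 1 scaling, and these were PKP-BETA1, LTA2, CAC1, AT1G24360 and FaTA, all with near-equal levels.

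Genes that feed or follow the route were read from 10 lists of 82 further genes. Of the 73 that passed the level, 33 (45.2%) were higher and 8 (11.0%) lower, against 29.3% and 23.1% of all genes. Carbon supply had 3 of 9 higher (33.3%, close to the 29.3% of all genes), 0 lower and 6 within 2-fold. GPT1 (AT5G54800), which imports glucose 6-phosphate into plastids, was at 79.7 RPKM in the suspensor and 14.6 RPKM in the embryo proper. ENO1 (AT1G74030), the plastid enolase, was at 104 RPKM against 25.7 RPKM, and PGM (AT5G51820), the plastid phosphoglucomutase, at 26.2 RPKM against 8.23 RPKM. BASS2 (AT2G26900), of the same list, was at 30.5 RPKM in the suspensor and 61.7 RPKM in the embryo proper. It was 2.02-fold lower (1.76 to 2.32) without a pseudocount and within 2-fold with it. The homomeric carboxylase ACC2 (AT1G36180), a single large protein that makes malonyl-CoA, was at 19.4 RPKM in the suspensor and 4.71 RPKM in the embryo proper, and its close relative ACC1 (AT1G36160), with which counting could have divided reads, was at 17.4 RPKM against 24.1 RPKM.

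Export and activation of fatty acids had 3 of 4 genes higher in the suspensor library (75%, against 29.3% of all genes) and 0 lower. The list summed to 336 RPKM in the suspensor and 81.4 RPKM in the embryo proper. LACS4 (AT4G23850), an acyl-CoA synthetase, was at 207 RPKM in the suspensor and 35.6 RPKM in the embryo proper, and LACS8 (AT2G04350), another, at 53.8 RPKM against 7.09 RPKM. AT3G57280, annotated as a transmembrane 14C protein, was at 28.4 RPKM against 13.3 RPKM. Of 5 other oil assembly genes 2 were higher (40%, against 29.3% of all genes). DGAT3 (AT1G48300), a soluble diacylglycerol acyltransferase, was at 394 RPKM in the suspensor and 54.2 RPKM in the embryo proper, the highest level among the diacylglycerol acyltransferases measured, and PAH1 (AT3G09560), a phosphatidate phosphatase, was at 17.7 RPKM against 7.07 RPKM.

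Genes of fatty acid and oil breakdown were also mostly higher in the suspensor library. Transcripts of synthesis and of degradation were present in both libraries, and whether they occur in the same cells was not tested. Of 13 genes 11 (84.6%) were higher and 0 lower, against 29.3% and 23.1% of all genes, with a median log2 difference of 2.21. The 13 genes summed to 1044 RPKM in the suspensor and 209 RPKM in the embryo proper, 5.00-fold (4.83 to 5.18). LACS7 (AT5G27600), which activates fatty acids in the peroxisome, was at 50.3 RPKM in the suspensor and 3.37 RPKM in the embryo proper. PKT3 (AT2G33150), the thiolase that ends each round of beta-oxidation, was at 507 RPKM against 67.3 RPKM, and MFP2 (AT3G06860), the multifunctional protein of the preceding reactions, at 79.3 RPKM against 14.2 RPKM. The oil lipase SDP1 (AT5G04040) did not reach 2-fold, at 19.5 RPKM in the suspensor and 16.1 RPKM in the embryo proper. The summed ratio was 1.13 for the plastid synthesis loci and 2.75 for the loci after export, where FAD2 made up most of the sum.

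**Figure D5:**
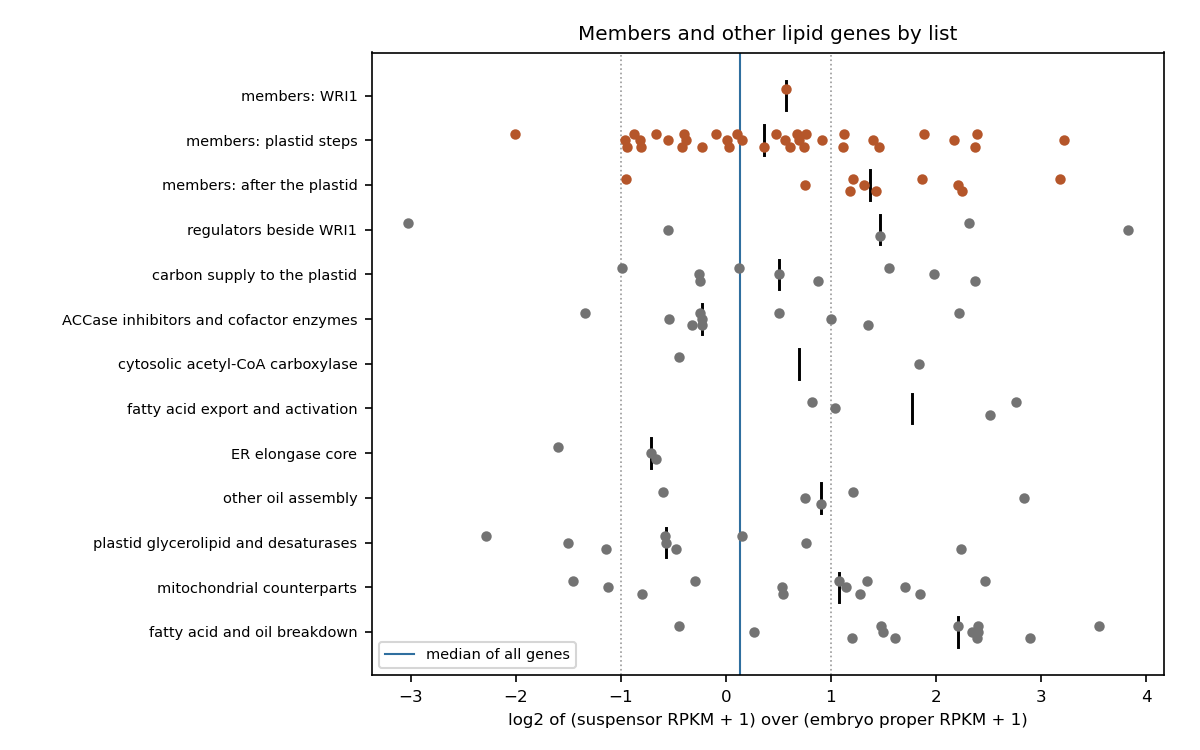
Log2 of (suspensor RPKM + 1) over (embryo proper RPKM + 1) for each gene that passed 1 RPKM, orange for the loci of the synthesis route and grey for the further lists; black bars are list medians, dotted lines mark 2-fold and the blue line is the median of all genes, 0.13. Breakdown genes have a median of 2.21 and loci after the plastid one of 1.37, while the plastid loci spread on both sides of 0 around a median of 0.36.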

How the data were processed

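Per the labels' protocols, regions were captured by laser from fixed, paraffin-embedded seeds, and 15 ng of total RNA per library was amplified before an Illumina library was enriched by 15 cycles of PCR. The deposited values are RPKM per gene, given by the authors for genes above 0. TAIR10, HTSeq 0.6.1 and HISAT2 2.0.6 appear, with no roles, in the submitters' processing notes. The strand setting, the gene length used and the handling of multiply matching reads were not given in the sources used here.

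An unlisted gene counted as 0 RPKM. Reads were recovered from RPKM with the longest coding length in RefSeq TAIR10.1: 92.2% of low suspensor values and 91.8% of low embryo proper values came within 0.05 of a whole read, and the median listed gene had 88.0 and 145 reads. Ratios are suspensor over embryo proper, and calls used log2(RPKM + 1), which understates differences of low genes. Binomial intervals (95%, Clopper-Pearson) for single genes and shares came from the recovered reads. Intervals (95%) for ratios of summed levels came from the same reads by a normal approximation on the log scale. Shares, coding identities, motif matches and summed levels were computed with Python 3.11.15, pandas 2.3.3, SciPy 1.17.1 and Biopython 1.88. The recovery of read totals and the 2-fold calls were tested on simulated libraries, and the other quantities were not. The simulated reads used the same coding lengths and had no PCR copies, overlapping genes or tissue mixing. That check covers the arithmetic only and cannot show that a call reflects a difference between the tissues. With 1 library per tissue no comparison was tested.

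Named genes were the loci that reached 10 RPKM in a library or were the highest of their family, and further genes past 2-fold with at least 10 RPKM, up to 3 each way per list. SDP1, ACC1, BASS2, LEC2, MTACP-1, mtACP2, ATS2, LPLAT1 and the low desaturases were named outside this rule, after their values were seen. The 49 loci and the lists were chosen with earlier results of these data known. RefSeq sequences are those of Col-0, and the plants were Ws-0. Coding sequences of the acyl carrier proteins were translated to find the serine codon, and no other protein sequence was used here.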

Additional observations from a re-analysis of the deposited data

How the results depend on the processing

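The count of 17 loci higher in the suspensor library stayed between 12 and 21 over pseudocounts of 0.1 and 5 RPKM, no filter or a filter of 10 RPKM, 4 scalings and the removal of the 4 loci that share a run of 50 coding bases with another gene, and it was 7 at a threshold of 4-fold. The share of all genes called higher moved too, being 29.3% as deposited, 17.8% with a pseudocount of 5 RPKM (12 loci), 35.2% without the 10 most abundant genes (21 loci) and 12.3% at 4-fold. The count of 1 lower locus was 3 with a pseudocount of 0.1 RPKM and 3 with libraries scaled to a sum of 1000000, 4 by the upper quartile and 5 at a median log2 ratio of 0, where the shares of all genes called lower were 25.5%, 23.6%, 24.2% and 25.8%, in that order. Of the 5, ACP2, MOD1, SSI2 and LPLAT2 had lain just inside 2-fold. The median log2 difference of the loci was 0.88 without the 10 most abundant genes of either library, a setting added after the data were seen, under which the median over all genes was 0.41. The ratio of summed levels over the 49 loci, 1.43 as deposited, was 1.29 with a median log2 ratio of 0, 1.37 by the upper quartile and 1.77 without the 10 most abundant genes. Shares within families do not change with scaling. No paired analysis was possible because each tissue had 1 library, and for the same reason no library could be left out. Depth limits the loci with few reads, FTM1, AT3G02610, AT3G02620 and LPLAT1, whose folds are known only within wide intervals.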

Other observations

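Mitochondria hold a second, small fatty acid synthesis route and their own pyruvate dehydrogenase, and these counterparts were measured in the same libraries. Of 13 genes 7 (53.8%) were higher in the suspensor library and 2 (15.4%) were lower, against 29.3% and 23.1% of all genes. The 13 genes summed to 1699 RPKM in the suspensor and 1473 RPKM in the embryo proper. IAR4 (AT1G24180), an E1 alpha subunit of the mitochondrial complex, was at 281 RPKM in the suspensor and 50.0 RPKM in the embryo proper, and E1 ALPHA (AT1G59900), its paralogue, was at 66.6 RPKM against 17.7 RPKM. LTA3 (AT3G52200), an acetyltransferase subunit, was at 81.0 RPKM against 31.3 RPKM, whereas AT1G54220, annotated as another, was lower in the suspensor library, at 11.1 RPKM against 32.0 RPKM. Mitochondrial acyl carrier proteins were divided: MTACP-1 (AT2G44620) was at 306 RPKM in the suspensor and 210 RPKM in the embryo proper, mtACP2 (AT1G65290) was at 472 RPKM in the suspensor and 822 RPKM in the embryo proper, and mtACP3 (AT5G47630) was lower in the suspensor library, at 29.9 RPKM against 66.3 RPKM.

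Membrane lipid synthesis inside the plastid, which uses the same acyl-ACP, was mostly not higher in the suspensor library. Of 9 genes 3 (33.3%) were lower and 1 (11.1%) was higher, against 23.1% and 29.3% of all genes. The 9 genes summed to 85.5 RPKM in the suspensor and 107 RPKM in the embryo proper. FAD6 (AT4G30950), the plastid counterpart of FAD2, was at 15.3 RPKM in the suspensor and 35.0 RPKM in the embryo proper, and FAD8 (AT5G05580), a plastid counterpart of FAD3, at 1.28 RPKM against 10.1 RPKM. ATS1 (AT1G32200), the plastid glycerol-3-phosphate acyltransferase, was at 3.02 RPKM against 10.4 RPKM. The 1 gene called higher was DGD1 (AT3G11670), a galactolipid synthase, at 14.9 RPKM in the suspensor and 2.37 RPKM in the embryo proper. ATS2 (AT4G30580), the other plastid acyltransferase of the list, was at 23.4 RPKM against 13.4 RPKM, under the 2-fold call.

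Among 10 genes for carboxylase inhibitors and for biotin and lipoyl cofactors, 2 (20%) were higher in the suspensor library and 1 (10%) was lower. The shares over all genes were 29.3% and 23.1%. AT1G42960, annotated as an inner membrane localized protein, was at 108 RPKM in the suspensor and 41.7 RPKM in the embryo proper. AT5G08415, annotated as a radical SAM superfamily protein, was at 18.2 RPKM against 3.12 RPKM. AT5G16660, annotated as a low-density receptor-like protein, was lower in the suspensor library, at 6.86 RPKM against 18.9 RPKM.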
